A study of Mus musculus with 6 samples.

Results

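The collagen gene family was examined in whole retinas of 2-month-old mice. Members were all protein-coding genes whose symbol is written as Col, a type number, the letter a and a chain number, and 44 of the 55421 genes counted met this rule. *Col21a1* has no entry in the mouse table. *Yap* codes for YAP, a transcriptional co-activator of the Hippo pathway that binds DNA through TEAD factors. The 3 control animals (YR612, YR613 and YR615) were Yap fl/fl, carried both floxed alleles and had no Cre. The 3 *Yap* cKO animals (YR711, YR713 and YR714) were Yap fl/fl and also carried RaxCreERT2, a tamoxifen-inducible Cre driven by *Rax*. All 6 animals received 4-hydroxytamoxifen at postnatal days 10 and 14, so the groups shared the floxed alleles and the drug and differed in Cre. Recombination was limited to *Rax*-expressing cells, which the study describes as Müller glia of the retina and the inner, unpigmented epithelial layer (NPE) of the ciliary body, the folded tissue that borders the retina at its front edge. Most retinal cells therefore kept the gene. Retinas were freed by a cut just below the ora serrata, the boundary between retina and ciliary body. Sex and litter were not given in the labels.

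Collagens are secreted or membrane-bound proteins built from chains that wind into a triple helix, in which glycine recurs at regular steps. Fibrillar collagens form the cross-striated fibres of connective tissue and, with type II as the main component, of the vitreous gel of the eye. FACIT collagens decorate such fibres, type IV collagens form the sheet-like network of basement membranes, type VIII forms hexagonal lattices, type VI forms beaded filaments, and transmembrane collagens sit in the cell membrane. Multiplexins are basement membrane proteins of a different build, and the C-terminal piece cut from the type XVIII chain is endostatin, an inhibitor of vessel growth.

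Pooled over each class, the share of coding exons of one particular length differed. In fibrillar genes 305 of 649 coding exons (47.0%) were exactly 54 bases long, and in FACIT genes 109 of 432 (25.23%) were. This length has room for a whole number of glycine-led triplets, at 9 bases each. In the genes of the basement membrane network 12 of 296 coding exons (4.05%) had that length, and in the multiplexins 4 of 81 (4.94%). Single genes departed from their class, since the FACIT gene *Col12a1* had 4 such exons of 65 and the FACIT gene *Col22a1* 28 of 63. Any other multiple of 9 bases has room for whole triplets as well. Reading frame and glycine codons were not checked, exons outside the helix were counted too, and no share over other genes was computed. Coding exons of any such multiple were 535 of 649 in fibrillar and 229 of 432 in FACIT genes. They were 136 of 296 in the basement membrane network and 29 of 81 in the multiplexins. The 3 hexagonal network genes had 2 coding exons each. The exonic length of the members ran from 3095 to 15228 bases with a median of 7542.5, above the median of 4132 bases over all genes tested.

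Because YAP acts through TEAD factors, the promoter windows of the members were searched for the TEAD letters GGAATG on either strand (CATTCC on the other), over 250 bases before to 50 bases after each RefSeq start site in GRCm38.p6. RefSeq gave 38 windows for 35 of the 44 members, and 5 of the 38 windows (13.2%) held the letters, against 14.7% of all 32851 windows. The members were *Col18a1*, *Col20a1*, *Col3a1*, *Col4a6* and *Col6a2*. *Col18a1* has 2 start sites on the minus strand of chromosome 10. The window of the inner one, whose start is at base 77113705, held the letters at 2 places, which 1.36% of all windows did. Both matches lay inside exon 1 of the annotated transcript ENSMUST00000072755, which begins 241 bases upstream of the RefSeq start. They are shown with 12 bases on each side and the TEAD letters in capitals, followed by the bases upstream of the outer start of *Col18a1* and of its fellow multiplexin *Col15a1*, where the letters did not occur.

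Col18a1 inner start, first match, chr10:77113792-77113821, minus strand: tcaggctgggttCATTCCcttctgccagag
Col18a1 inner start, second match, chr10:77113742-77113771, minus strand: gactgggaaccaGGAATGagggagggtggg
Col18a1 outer start, chr10:77166549-77166780, minus strand: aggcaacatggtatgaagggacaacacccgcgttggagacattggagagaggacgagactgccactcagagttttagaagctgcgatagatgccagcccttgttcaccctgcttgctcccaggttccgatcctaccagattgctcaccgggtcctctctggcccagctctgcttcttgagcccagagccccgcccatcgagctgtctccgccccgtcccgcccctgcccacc
Col15a1 start, chr4:47207762-47208011, plus strand: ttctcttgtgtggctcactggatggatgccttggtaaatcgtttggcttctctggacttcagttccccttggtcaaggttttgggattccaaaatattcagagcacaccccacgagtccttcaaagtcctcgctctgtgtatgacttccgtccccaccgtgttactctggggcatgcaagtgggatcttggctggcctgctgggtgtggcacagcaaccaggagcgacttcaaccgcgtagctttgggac

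A match of letters is a description of the window and not a binding site. The log2 fold changes of the members with the letters once were -0.73 for *Col4a6*, 0.23 for *Col6a2*, 0.00 for *Col20a1* and -0.00 for *Col3a1*, none of which passed the test described below, and that of *Col18a1* was -1.96. Of the other members that passed, *Col1a2*, *Col5a1*, *Col11a1* and *Col9a2* had a window without the letters.

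The libraries held 24261799 to 35067068 counts, of which the collagens took between 0.0290% and 0.0432%. Levels are given as TPM, that is counts divided by exonic length and scaled to the same total in every retina. The tissue label matched its markers, since *Gnat1*, the gene of the rod transducin alpha subunit, lay between 17631 and 19619 TPM. *Yap1* measured 9.48, 9.52 and 9.83 TPM in control retinas and 3.99, 3.76 and 3.94 in *Yap* cKO retinas. In bulk tissue, fewer cells of a type and less RNA per cell cannot be told apart, which holds for every difference below.

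In control retinas the most abundant collagen transcript was *Col23a1*, which codes for a transmembrane collagen and made up 21.0% of the summed collagen TPM. *Col18a1* followed with 15.4%. The type IX genes *Col9a1* (10.5%), *Col9a2* (7.09%) and *Col9a3* (7.03%) came next, then *Col8a2*, *Col4a2*, *Col2a1*, *Col4a1* and *Col8a1*, each between 3.51% and 6.53%. The genes of the classical connective tissue collagens were low. *Col1a1* measured 0.24 to 0.30 TPM and *Col3a1* 0.21 to 0.73 TPM in control retinas, whereas *Col1a2* reached 3.09 to 4.37 TPM. In *Yap* cKO retinas *Col23a1* was still first with 26.7%, *Col9a1*, *Col4a2* and *Col4a1* came next, and *Col18a1* stood sixth with 5.09%. These ranks compare means, and neighbours such as *Col9a2* and *Col9a3* in control retinas overlapped between retinas.

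**Figure D1:**
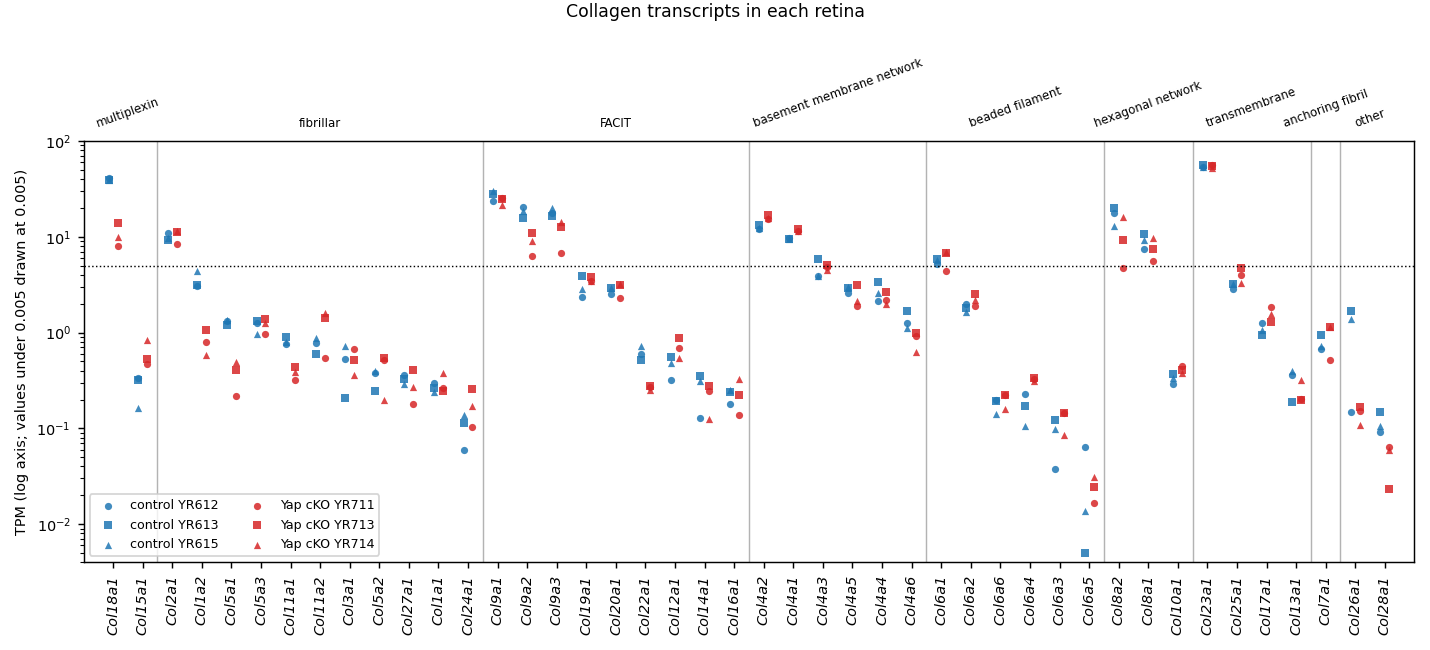
TPM of the 44 collagen genes in each of the 3 control retinas (blue) and 3 *Yap* cKO retinas (red) on a log axis, grouped by collagen class, with the dotted line at 5 TPM and values under 0.005 drawn at 0.005. The control retinas of *Col18a1* sit between 38.8 and 41.3 TPM and its *Yap* cKO retinas between 7.96 and 13.9, whereas all 6 retinas of *Col23a1* lie between 52.8 and 55.8.

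The summed collagen TPM was 253, 264 and 259 in control retinas and 184, 220 and 212 in *Yap* cKO retinas. All 3 *Yap* cKO values lay under the lowest control value, and the means were 258 ± 5.40 and 205 ± 19.1 (SD, n = 3 each), a ratio of 0.794. A sum over chosen genes was given no test. The difference was uneven between classes. The ratio of *Yap* cKO to control means was 0.279 for the multiplexins, 0.688 for the hexagonal network, 0.730 for FACIT collagens and 0.844 for fibrillar collagens. It was 1.02 for transmembrane collagens, 1.13 for the basement membrane network and 1.13 for the beaded filaments. *Col18a1* carried much of the difference, as the log2 ratio of the sums went from -0.33 to -0.17 when this gene was left out, a setting chosen after seeing the data.

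**Figure D2:**
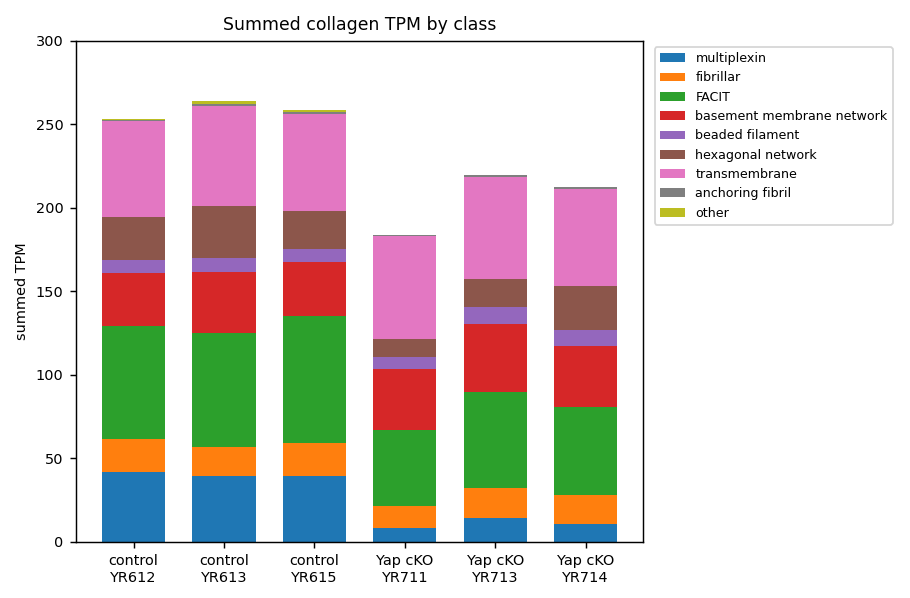
Collagen TPM summed by class in each retina, as stacked bars that start at 0. The bars of the control retinas reach 253 to 264 TPM and those of the *Yap* cKO retinas 184 to 220, with the multiplexin layer going from 39.1 to 41.6 TPM in control retinas to 8.43 to 14.4 in *Yap* cKO retinas.

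Of the 44 members 38 had enough counts to be tested, and 6 did not, namely *Col6a3*, *Col6a5*, *Col24a1*, *Col10a1*, *Col26a1* and *Col28a1*. In the quasi-likelihood test of edgeR, adjusted by the Benjamini-Hochberg method over all 16575 genes tested, 6 collagens had an adjusted p of at most 0.05, all lower in *Yap* cKO retinas, and the other 32 did not pass. At an unadjusted p under 0.05 there were 15 of the 38, beside 21.4% of all genes. Among all genes tested 1.49% passed, 0.989% in that direction and 0.501% in the other. The 6 were *Col18a1*, *Col1a2*, *Col5a1*, *Col11a1*, *Col9a2* and *Col22a1*. With the study's further criteria of a fold change of at least 1.5 and at least 5 TPM in 1 group, *Col18a1* and *Col9a2* remained, against 0.796% of all genes in either direction and 0.585% in that one. In the quasi-likelihood test 132 of all genes met all of these criteria, and 291 did in the likelihood ratio test of edgeR. *Col18a1* and *Col9a2* were the only collagens that met them in either test. The study's methods do not state which test of edgeR was used, so these calls need not be those of the study. Among the members tested 20 had a log2 fold change below 0 (49.7% of all genes did) and 18 above, and the median was -0.01 beside 0.00 over all genes. No overlap between the groups was seen for 14 of the 38 members, 8 lower and 6 higher, beside a background of 24.3% of all genes, 9.04% lower and 15.2% higher.

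**Figure D3:**
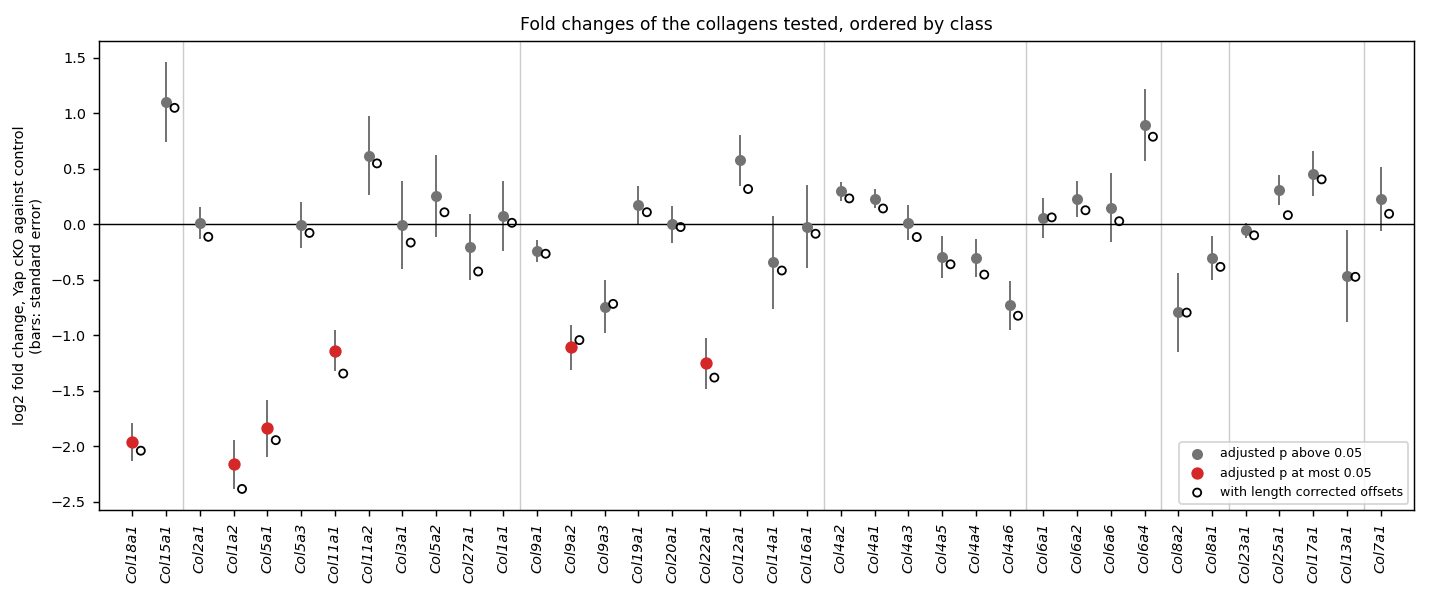
Log2 fold change of the 38 collagens tested, *Yap* cKO against control, with bars of 1 standard error, ordered by class in the same order as the plot of TPM, with vertical lines between classes. The 6 genes in red have an adjusted p of at most 0.05 and lie between -2.16 and -1.11, and open circles give the fold change with offsets corrected for gene length, where the same 6 genes lie between -2.38 and -1.04.

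Gene length moved with the fold changes in these libraries. Across all genes tested the log2 fold change and the exonic length had a Spearman correlation of 0.391, given as a description across genes of the same 6 libraries, and the collagens are long. With offsets corrected for length the median of the collagens was -0.10 (0.00 over all genes), and the 6 genes above still passed.

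Of the 2 multiplexins 1 passed the test. *Col18a1* (chromosome 10 of GRCm38, 77052178 to 77166548) measured 41.3, 38.8 and 39.1 TPM in control retinas and 7.96, 13.9 and 9.86 in *Yap* cKO retinas. Every *Yap* cKO retina lay at most at 34.9% of the control mean, and YR713 was the highest of them. The log2 fold change was -1.96 ± 0.17 (SE, edgeR adjusted p = 0.00123). *Col15a1* (chromosome 4, 47208161 to 47313167), whose protein lies in basement membranes of vessels and muscle, had 0.33, 0.32 and 0.16 TPM in control retinas and 0.47, 0.52 and 0.83 in *Yap* cKO retinas. Its groups did not overlap either, but these values rest on 8 to 36 counts, and the log2 fold change of 1.11 ± 0.36 did not pass the test (edgeR adjusted p = 0.137). It passed in the likelihood ratio test of edgeR (adjusted p = 0.0454) and without the filter on low counts (adjusted p = 0.0189). In these settings 1025 and 1865 of all genes passed, beside 247 in the quasi-likelihood test. On chromosome 10, *Col6a1* lies 326009 bases from *Col18a1* on the same strand, and its log2 fold change was 0.06.

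Of the 11 fibrillar genes 10 were tested and 3 passed, all lower, beside 0.989% of all genes in that direction. Each of the 3 codes for a chain that assembles with another chain that did not pass the test. *Col1a2* (chromosome 6, 4504814 to 4541544) codes for the alpha2 chain of type I collagen, which in tissue pairs with a larger amount of the alpha1 chain from *Col1a1*. It measured 3.09, 3.11 and 4.37 TPM in control retinas and 0.79, 1.06 and 0.58 in *Yap* cKO retinas, from 253 to 417 and 49 to 115 counts. The highest *Yap* cKO value was under the lowest control value, and the log2 fold change was -2.16 ± 0.22 (SE, edgeR adjusted p = 0.00236). *Col1a1* (chromosome 11, 94936224 to 94953042) had 0.30, 0.27 and 0.24 TPM in control retinas and 0.26, 0.25 and 0.38 in *Yap* cKO retinas, from 11 to 17 counts in all, with overlapping groups and a log2 fold change of 0.08 (edgeR adjusted p = 0.910). The ratio of *Col1a2* to *Col1a1* was 10.3, 11.7 and 18.4 in control retinas and 3.02, 4.34 and 1.52 in *Yap* cKO retinas. The alpha2 transcript thus outnumbered the alpha1 transcript in every retina, and did so less in all 3 *Yap* cKO retinas. No test was run on this or any other ratio. The smallest p of an exact permutation test of 3 against 3 retinas is 0.1. *Gm43921*, another annotated gene, overlaps *Col1a2* on the same strand, and reads that fall on both could not be assigned to either.

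*Col5a1* (chromosome 2, 27886425 to 28039514) codes for the main chain of type V collagen, which regulates the diameter of fibrils. It measured 1.33, 1.21 and 1.35 TPM in control retinas and 0.22, 0.40 and 0.50 in *Yap* cKO retinas, from 71 to 89 and 12 to 30 counts. The groups were well apart, and the log2 fold change was -1.84 ± 0.26 (SE, edgeR adjusted p = 0.0104). Its partner *Col5a2* had 0.38, 0.24 and 0.39 TPM in control retinas and 0.52, 0.54 and 0.20 in *Yap* cKO retinas, with overlapping groups and a log2 fold change of 0.26 (edgeR adjusted p = 0.704). The *Col5a1* to *Col5a2* ratio was 3.50, 4.97 and 3.44 in control retinas and 0.42, 0.75 and 2.50 in *Yap* cKO retinas. *Col5a1* was the more abundant of the pair in all control retinas and in 1 of the 3 *Yap* cKO retinas, YR714.

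*Col11a1* (chromosome 3, 114030540 to 114220718) codes for the alpha1 chain of type XI collagen, which sits in the core of type II fibrils. It measured 0.76, 0.89 and 0.81 TPM in control retinas and 0.32, 0.44 and 0.39 in *Yap* cKO retinas, from 64 to 79 and 26 to 49 counts. The groups did not overlap, and the log2 fold change was -1.14 ± 0.18 (SE, edgeR adjusted p = 0.0221). Its partner chain gene *Col11a2* measured 0.77, 0.59 and 0.87 TPM in control retinas and 0.55, 1.40 and 1.597 in *Yap* cKO retinas, with overlapping groups and a log2 fold change of 0.62 ± 0.36 (SE, edgeR adjusted p = 0.335). *Col2a1*, the fibril's main component, had 10.9, 9.25 and 9.64 TPM in control retinas and 8.33, 11.3 and 11.5 in *Yap* cKO retinas. It was thus the most abundant fibrillar gene in both groups, and its log2 fold change of 0.01 took the other sign under other scalings. The *Col2a1* to *Col11a1* ratio was 14.3, 10.4 and 11.96 in control retinas and 26.1, 25.6 and 29.5 in *Yap* cKO retinas, so that every *Yap* cKO retina held more type II transcript for each type XI alpha1 transcript than any control. The other fibrillar genes (*Col3a1*, *Col5a3*, *Col24a1* and *Col27a1*) were at most 1.40 TPM in any retina and none that was tested passed.

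The adjusted p, but not the size, of the differences in *Col5a1* and *Col11a1* crossed the threshold when a retina was left out. Without YR612, YR615 or YR713 the log2 fold change of *Col5a1* was -1.80, -1.81 and -1.89 (edgeR adjusted p = 0.0623, 0.0699 and 0.0542), and that of *Col11a1* was -1.17, -1.15 and -1.25 (edgeR adjusted p = 0.0843, 0.102 and 0.0578). The number of all genes that passed went from 247 with 6 retinas to 56, 49 and 93 with these 5. *Col18a1* and *Col1a2* passed without any 1 of the 6 retinas.

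Of the 9 FACIT genes, all tested, *Col9a2* and *Col22a1* passed and were lower, beside 0.989% of all genes in that direction. Type IX collagen is made of 3 different chains, coats the thin type II fibrils of vitreous and cartilage, and comes from *Col9a1*, *Col9a2* and *Col9a3*. *Col9a2* (chromosome 4, 121039385 to 121055322) measured 20.6, 15.6 and 18.6 TPM in control retinas and 6.37, 11.1 and 8.94 in *Yap* cKO retinas. All 3 *Yap* cKO values lay under the lowest control value, and the log2 fold change was -1.11 ± 0.20 (SE, edgeR adjusted p = 0.0334). *Col9a3* (chromosome 2, 180597790 to 180622189) measured 17.8, 16.6 and 20.03 TPM in control retinas and 6.70, 12.7 and 14.3 in *Yap* cKO retinas. Its groups did not overlap, but the *Yap* cKO retinas were spread, and the log2 fold change of -0.74 ± 0.24 did not pass (edgeR adjusted p = 0.135). *Col9a1* (chromosome 1, 24177610 to 24252684) had 23.6, 27.6 and 29.99 TPM in control retinas and 25.1, 24.8 and 21.5 in *Yap* cKO retinas, which overlapped, with a log2 fold change of -0.24 ± 0.10 (edgeR adjusted p = 0.200). The *Col9a1* to *Col9a2* ratio was 1.14, 1.77 and 1.61 in control retinas and 3.94, 2.24 and 2.41 in *Yap* cKO retinas, without overlap, whereas the ratio of *Col9a1* to *Col9a3* overlapped.

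*Col22a1* (chromosome 15, 71795795 to 72034227), whose protein is known from tissue junctions such as those of muscle and tendon, measured 0.59, 0.52 and 0.72 TPM in control retinas and 0.27, 0.27 and 0.25 in *Yap* cKO retinas. The *Yap* cKO retinas were close to each other and all under the control retinas, on 16 to 22 counts each, and the log2 fold change was -1.25 ± 0.23 (SE, edgeR adjusted p = 0.0338). Of the other FACIT genes *Col19a1* and *Col20a1* lay between 2.31 and 3.92 TPM, and *Col12a1*, *Col14a1* and *Col16a1* were under 1 TPM, and no member of this group passed. Without YR612 or YR615 the log2 fold change of *Col9a2* was -0.99 and -1.10 and did not pass (edgeR adjusted p = 0.160 and 0.155). Without YR612, YR615, YR711 or YR713 that of *Col22a1* was -1.26, -1.12, -1.26 and -1.27 and did not pass (edgeR adjusted p = 0.139, 0.164, 0.0752 and 0.164). *Col9a3* passed without YR714, with a log2 fold change of -0.96 (edgeR adjusted p = 0.0359), and also with all 6 retinas in DESeq2 (adjusted p = 0.0246), in the likelihood ratio test with length correction (adjusted p = 0.0334) and without the filter on low counts (adjusted p = 1.43e-06). In these settings, in that order, 992, 892, 1029 and 1865 of all genes passed, beside 247 in the quasi-likelihood test of all 6 retinas.

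None of the 6 basement membrane network genes passed the test. *Col4a1* and *Col4a2* code for the chains of the type IV network found in nearly all basement membranes, and lie head to head on chromosome 8 with 22 bases in common. *Col4a2* measured 12.1, 13.2 and 12.2 TPM in control retinas and 15.3, 16.8 and 15.8 in *Yap* cKO retinas. *Col4a1* measured 9.71, 9.56 and 9.47 TPM in control retinas and 11.5, 12.1 and 11.4 in *Yap* cKO retinas. Both were higher in every *Yap* cKO retina than in any control retina, but the log2 fold changes of 0.30 ± 0.08 and 0.23 ± 0.09 did not pass (edgeR adjusted p = 0.106 and 0.177). Corrected for gene length these became 0.23 and 0.14. The ratio of *Col4a1* to *Col4a2* stayed between 0.722 and 0.804 in all 6 retinas. Read as a fold, highest over lowest, this was the narrowest range among the 12 chain ratios computed.

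*Col4a3*, *Col4a4* and *Col4a5* code for the chains of the network known from the glomerulus of the kidney, the inner ear and the eye, and lay between 1.89 and 5.93 TPM with overlapping groups. *Col4a3* and *Col4a4* lie head to head, 71 bases apart, and had log2 fold changes of 0.02 and -0.30. Their ratio was 1.82, 1.75 and 1.52 in control retinas and 2.23, 1.91 and 2.26 in *Yap* cKO retinas. *Col4a6* lies head to head with *Col4a5* on the X chromosome and measured 1.27, 1.68 and 1.13 TPM in control retinas and 0.92, 0.99 and 0.62 in *Yap* cKO retinas. Its groups did not overlap, and its log2 fold change of -0.73 ± 0.22 did not pass the test (edgeR adjusted p = 0.122), though it did in the likelihood ratio test of edgeR (adjusted p = 0.0413). In that test 1025 of all genes passed, beside 247 in the quasi-likelihood test. The 3 head-to-head pairs of the class therefore held 1 pair in which both members were higher in every *Yap* cKO retina, and 2 pairs in which at least 1 member overlapped.

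**Figure D4:**
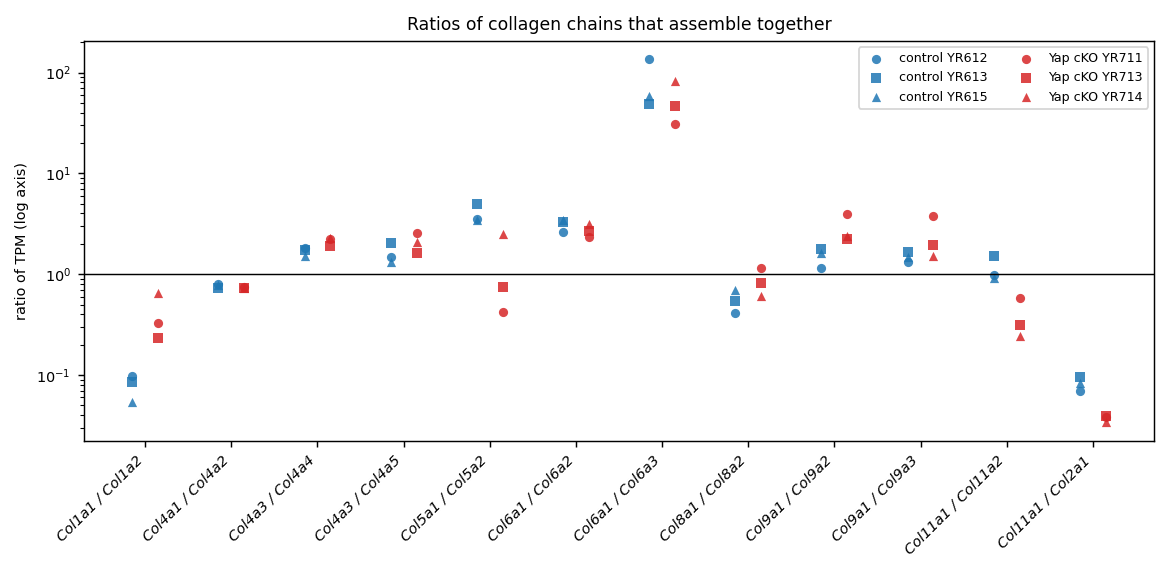
Ratio of TPM of the 12 pairs of collagen chains examined, in each control retina (blue) and *Yap* cKO retina (red), on a log axis with a line at equal levels. The ratios of *Col1a1* to *Col1a2* (0.0545 to 0.0973 in control retinas, 0.231 to 0.657 in *Yap* cKO retinas) and of *Col5a1* to *Col5a2* (0.42 to 2.50 in *Yap* cKO retinas) do not overlap between groups, whereas those of *Col4a1* to *Col4a2* overlap.

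The hexagonal network genes *Col8a1* and *Col8a2* code for the chains of type VIII collagen, known from the membrane beneath the corneal endothelium and from vessel walls. *Col8a2* (chromosome 4, 126286793 to 126314330) measured 17.9, 19.8 and 13.0 TPM in control retinas and 4.78, 9.27 and 16.2 in *Yap* cKO retinas. YR711 was the lowest and YR714 lay inside the control range, and the log2 fold change of -0.79 ± 0.35 did not pass (edgeR adjusted p = 0.235). Without YR714 it was -1.32 and passed (edgeR adjusted p = 0.0221), and without the filter on low counts it also passed (adjusted p = 1.01e-07). More of all genes passed in these settings, 992 without YR714 and 1865 of 30129 without the filter, beside 247 in the quasi-likelihood test of all 6 retinas. *Col8a1* (chromosome 16, 57624258 to 57754737) had 7.39, 10.7 and 9.15 TPM in control retinas and 5.54, 7.54 and 9.79 in *Yap* cKO retinas, with the same order of the *Yap* cKO retinas, overlapping groups and a log2 fold change of -0.30 (edgeR adjusted p = 0.395).

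The transmembrane and beaded filament genes showed no call. *Col23a1* (chromosome 11, 51289920 to 51583918) measured 53.2, 55.8 and 53.97 TPM in control retinas and 55.8, 54.8 and 52.8 in *Yap* cKO retinas. Its retinas overlapped, and the log2 fold change was -0.05 ± 0.07 (SE, edgeR adjusted p = 0.661), the smallest standard error among the collagens tested. *Col25a1*, the transmembrane collagen of neurons, and *Col17a1*, that of epithelial attachment, were higher in every *Yap* cKO retina than in any control retina, with log2 fold changes of 0.31 ± 0.13 and 0.46 ± 0.20 that did not pass (edgeR adjusted p = 0.225 and 0.235). Corrected for gene length these became 0.08 and 0.41. *Col6a1*, the most abundant gene of the beaded filaments, had 5.19, 5.93 and 5.70 TPM in control retinas and 4.43, 6.74 and 6.98 in *Yap* cKO retinas, and *Col6a2* lay between 1.64 and 2.53 TPM. *Col6a3*, which codes for the large alpha3 chain of the type VI filament, did not exceed 0.14 TPM, or 15 counts, in any retina. *Col6a4*, *Col6a5* and *Col6a6* were under 0.34 TPM, and *Col7a1*, the anchoring fibril gene, was between 0.52 and 1.15 TPM with overlapping groups.

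Making a collagen fibre takes hydroxylases, chaperones, proteases that trim the ends of the chain and oxidases that cross-link the product. Of 34 such genes 31 were tested, 3 were lower in *Yap* cKO retinas with an adjusted p of at most 0.05 and none was higher, beside 0.989% and 0.501% of all genes. An unadjusted p under 0.05 was found for 12 of the 31, beside 21.4% of all genes. The median log2 fold change of the 31 was -0.08. *Crtap*, a subunit of the prolyl 3-hydroxylase complex, measured 10.9, 12.1 and 12.04 TPM in control retinas and 8.22, 7.13 and 6.94 in *Yap* cKO retinas, and its log2 fold change was -0.71 ± 0.13 (SE, edgeR adjusted p = 0.0347). *Pcolce*, which enhances removal of the C-terminal propeptide of fibrillar chains, measured 13.9, 13.6 and 13.1 TPM in control retinas and 2.78, 5.50 and 5.63 in *Yap* cKO retinas, and its log2 fold change was -1.59 ± 0.23 (SE, edgeR adjusted p = 0.0119). Neither gene's groups overlapped. The third was the collagen-binding glycoprotein gene *Sparc* at -1.10 ± 0.07 (SE, edgeR adjusted p = 0.000282), the most abundant of the chaperone and export group. *Sparc* passed under every alternative run. *Pcolce* did not pass without YR612 or YR615 (edgeR adjusted p = 0.0709 and 0.0641, log2 fold changes -1.55 and -1.62). *Crtap* did not pass without YR612, YR615, YR711 or YR713 (log2 fold changes -0.68 to -0.78), nor with length correction (-0.59, edgeR adjusted p = 0.0571).

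The most abundant genes of the other steps did not pass. *P4hb*, a subunit of prolyl 4-hydroxylase, lay between 354 and 380 TPM in all retinas with a log2 fold change of -0.08 (edgeR adjusted p = 0.566). *Colgalt1*, which glycosylates hydroxylysine, lay between 45.5 and 51.2 TPM (-0.03, edgeR adjusted p = 0.865). *Adamts3*, a protease that removes N-terminal propeptides, had 16.9, 21.2 and 14.3 TPM in control retinas and 23.5, 23.8 and 19.5 in *Yap* cKO retinas (0.29, edgeR adjusted p = 0.245). *Loxl1*, the most abundant oxidase, had a log2 fold change of -0.90 that did not pass (edgeR adjusted p = 0.0885). The study does name *Loxl1* among its differentially expressed genes, and its methods do not state which test of edgeR was used. With all 6 retinas *Loxl1* did pass in DESeq2 (adjusted p = 0.00745), in the likelihood ratio test without and with length correction (0.0105 and 0.00729), with GC correction (0.0351) and without the filter on low counts (6.8e-06). In these settings, in that order, 892, 1025, 1029, 635 and 1865 of all genes passed, beside 247 in the quasi-likelihood test. *Serpinh1*, the collagen-specific chaperone HSP47, had 22.5 to 24.8 TPM in control retinas and 15.3 to 20.3 in *Yap* cKO retinas (-0.39, edgeR adjusted p = 0.160).

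Of 11 collagen receptor genes 9 were tested and 1 passed, which was lower, beside 0.989% of all genes in that direction. *Ddr2*, a receptor tyrosine kinase for fibrillar collagens, measured 2.99, 3.70 and 2.81 TPM in control retinas and 1.84, 2.27 and 1.71 in *Yap* cKO retinas. Its groups did not overlap, and its log2 fold change was -0.76 ± 0.15 (SE, edgeR adjusted p = 0.0477), below 5 TPM in both groups. It did not pass without YR612, YR615, YR711 or YR713, with log2 fold changes of -0.72 to -0.89. *Ddr1*, the related kinase and the most abundant of these receptors, had 117, 112 and 118 TPM in control retinas and 101, 115 and 118 in *Yap* cKO retinas (-0.11, edgeR adjusted p = 0.475). The platelet receptor gene *Gp6* had no count in any retina.

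Markers of tissues that border the retina differed between the groups as well. Of 6 markers of ciliary NPE 5 were in the table, none at 0, and their summed level was 79.8 to 95.4 TPM in control retinas and 25.8 to 45.7 in *Yap* cKO retinas. Of the 4 tested *Optc* passed, with a log2 fold change of -3.41 (edgeR adjusted p = 0.00242). *Optc* made up 45.6 to 50.2 TPM of the sum in control retinas and 2.44 to 8.39 TPM in *Yap* cKO retinas. *Wfdc1*, the next largest, overlapped between the groups and did not pass (-0.43, edgeR adjusted p = 0.351). No overlap, with *Yap* cKO retinas lower, was seen for 3 of the 4, beside 9.04% of all genes. The 7 melanin pigment genes, none at 0, summed to 75.0 to 81.9 TPM in control and 17.9 to 50.6 TPM in *Yap* cKO retinas. Of the 7, *Pmel* passed (-1.89, edgeR adjusted p = 0.0347). Over all genes 0.989% passed in that direction, the background for the other lists too. No overlap, with *Yap* cKO retinas lower, was seen for 6 of the 7 melanin genes, beside 9.04% of all genes. An unadjusted edgeR p under 0.05 was found for 5 of the 7, beside 21.4% of all genes. The 6 genes of the retinal pigment epithelium (RPE), none at 0, summed to 654 to 721 TPM in control retinas and to 202, 371 and 706 TPM in YR711, YR713 and YR714, and none of 6 passed. The 6 fibroblast markers summed to 17.2 to 20.2 TPM and 8.36 to 11.6 TPM, and *Dcn* was at most 1.48 TPM and *Lum* was at 0 in 4 of 6 retinas. Of the 2 fibroblast markers tested *Ogn* passed (9.08 to 12.5 TPM against 1.28 to 2.42 TPM, log2 fold change -2.62, edgeR adjusted p = 0.00123), whereas *Pdgfra*, which made up 6.37 to 8.64 TPM of the sum in *Yap* cKO retinas, had a log2 fold change of -0.05. The 6 Müller glia markers summed to 4077 to 4389 TPM and 3588 to 4122 TPM, the 6 endothelial markers to 82.9 to 111 TPM and 82.5 to 94.5 TPM, and the 6 mural cell markers to 90.2 to 92.8 TPM and 80.8 to 106 TPM, and none of these 18 genes passed. Lens markers summed to at most 4.81 TPM and corneal epithelium markers to at most 2.93 TPM, with the lens gene *Lim2* at 0 in all retinas.

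The *Yap* cKO retinas differed among themselves, and not in the same way for every collagen. As percent of the control mean in YR711, YR713 and YR714, *Col18a1* was at 20%, 34.9% and 24.8%, *Col11a1* at 38.9%, 53.9% and 47.6%, and *Col9a2* at 34.9%, 60.5% and 48.9%. These were lowest in YR711 and highest in YR713. *Col5a1* (16.9%, 31% and 38.2%), *Col9a3* (36.9%, 70.2% and 78.7%) and *Col8a2* (28.3%, 54.9% and 95.7%) were lowest in YR711 and highest in YR714. *Col1a2* (22.5%, 30.2% and 16.4%) was lowest in YR714 and highest in YR713, and *Col22a1* lay between 41.5% and 44.9% in all 3.

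The summed marker lists in the same retinas were at 29.9%, 52.8% and 33.3% for ciliary NPE and 23.1%, 65% and 37.3% for melanin genes. The RPE list was at 29.4%, 54% and 103%. The fibroblast list, in which only *Ogn* passed and *Pdgfra* had a log2 fold change of -0.05, was at 45.7%, 60.9% and 43.8%. The Müller glia list was at 97.1%, 84.5% and 85.2%, highest in YR711. The endothelial list was at 81.4%, 92.1% and 93.2%, and the mural list at 116%, 102% and 88.7%. Of the markers that passed, *Optc* measured 2.86, 8.39 and 2.44 TPM in YR711, YR713 and YR714, *Pmel* 4.30, 11.5 and 3.96 TPM and *Ogn* 1.28, 2.42 and 1.54 TPM. All 3 were highest in YR713. In YR711 and YR714 the counts were 47 and 43 for *Optc*, 63 and 62 for *Pmel* and 21 and 27 for *Ogn*. The order of these 2 retinas in the 3 markers thus rests on few counts. With 3 retinas an order is a description only, and the part of these tissues and cell types in the collagen differences was not tested.

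**Figure D5:**
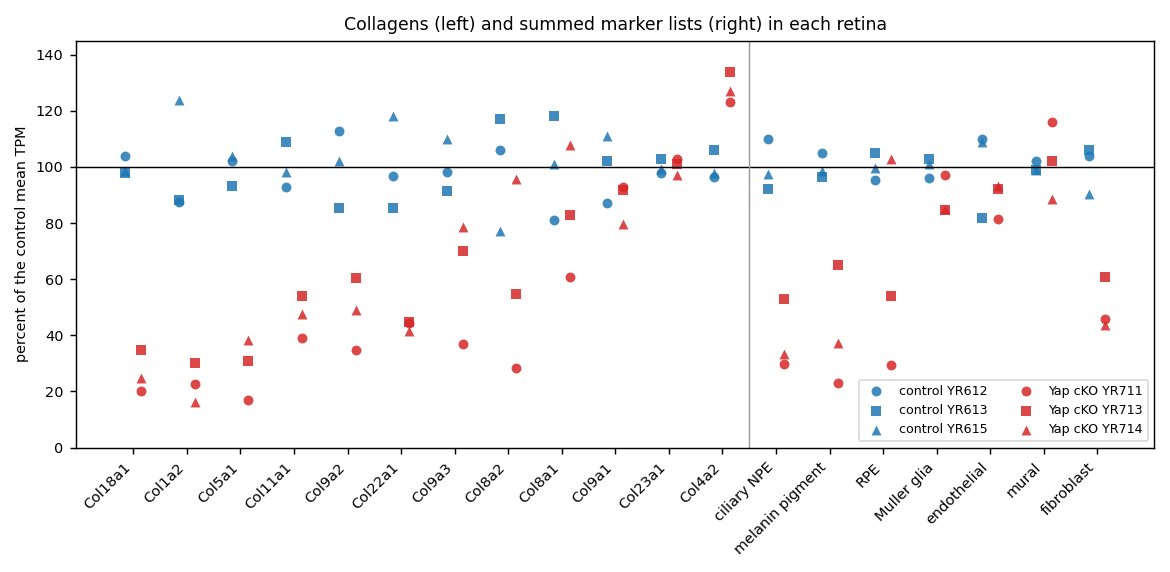
TPM of 12 collagens (left of the line) and summed TPM of 7 marker lists (right) in each retina, as percent of the mean of the 3 control retinas, with a horizontal line at 100%. Among the *Yap* cKO retinas *Col5a1*, *Col9a3*, *Col8a2*, *Col8a1* and the summed RPE and endothelial markers are lowest in YR711 and highest in YR714. *Col18a1*, *Col11a1*, *Col9a2*, *Col4a2* and the summed ciliary NPE and melanin markers are lowest in YR711 and highest in YR713. *Col18a1* and the ciliary NPE sum are low in all 3. In that sum *Optc* is the largest gene in control retinas, and *Wfdc1*, the next largest, overlaps between groups. The summed Müller glia and mural markers are highest in YR711 among the *Yap* cKO retinas. With 3 retinas an order is a description only.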

How the data were processed

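Stranded paired-end libraries of polyadenylated RNA from 6 retinas were aligned by the authors to GRCm38 with STAR 2.7.3a, and the deposited counts are fragments on exons per gene from featureCounts 1.6.2 (strand setting 2, Ensembl release 98), without normalization, with each gene's exonic length. Symbols came from GENCODE M21. Total counts per retina were 24261799 to 35067068. TPM was computed from counts and length. Groups were compared with edgeR 4.0.16 (R 4.3.3) on all 6 retinas, with low counts filtered by group, TMM factors, the quasi-likelihood test and Benjamini-Hochberg adjustment over 16575 genes. The procedure was tested on simulated data. Alternatives used limma 3.58.1, DESeq2 1.42.0, other scalings and filters, offsets smoothed on length or GC (loess, span 0.3) and each retina left out. The members and lists were chosen with earlier results of these data known. Text names collagens with an adjusted p of at most 0.05 or at least 5 TPM, their partner chains, and, of the other lists, genes that passed and the most abundant per step. Others named were chosen after their values were seen. Protein sequences were not used here.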

Additional observations from a re-analysis of the deposited data

How the results depend on the processing

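The 6 collagens with an adjusted p of at most 0.05 kept their direction and passed in all 66 combinations with the 11 alternatives that kept every retina. Leaving out 1 retina gave 36 further values, of which 24 still passed, and none changed sign. The number of collagens meeting all criteria was 4 without the filter on low counts, 6 without the minimum TPM, and 1 to 4 with 1 retina left out. The number with an adjusted p of at most 0.05 was 11 without the filter (10 lower and 1 higher, with *Col15a1* the higher one), 7 in DESeq2, 8 in each likelihood ratio test, and 2 to 8 with 1 retina left out. The background rose in most of these. Over all genes 1865 of 30129 passed without the filter and 892 of 16575 in DESeq2. In the likelihood ratio tests 1025 and 1029 passed, and 49 to 1490 did with 1 retina left out. The quasi-likelihood test of all 6 retinas had 247 of 16575. For collagen processing genes the count meeting all criteria was 1 to 5 with 1 retina left out, and the count with an adjusted p of at most 0.05 was 6 without the filter, 5 by likelihood ratio test with length correction, and 1 to 5 with 1 retina left out. For receptors these were 1 without the minimum TPM, where 0 met all criteria otherwise (3 had an unadjusted p under 0.05), and 0 to 2 with 1 retina left out. The log2 ratio of summed collagen TPM, -0.33, was -0.44 without *Col23a1* and -0.17 without *Col18a1*. *Col23a1* changed sign with GC correction (0.0029), and *Col2a1* with library size alone (-0.0038), upper quartile (-0.0367), length correction (-0.11) and the likelihood ratio test with length correction (-0.11). With 1 retina left out, *Col1a1* ran from -0.15 to 0.22, *Col2a1* from -0.0884 to 0.15 and *Col6a1* from -0.0676 to 0.24. The log2 *Col5a1* to *Col5a2* ratio was -2.77 without YR714. The causes of these changes were not tested.

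No paired analysis was possible because the labels give each animal its own code and no number shared between the groups. Depth limits the 6 members that were not tested, which held at most 95 counts in any retina.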

Other observations

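*Col26a1*, which had too few counts in most retinas to be tested, held 8, 95 and 88 counts in control retinas and 8, 12 and 6 counts in *Yap* cKO retinas. YR613 and YR615 were high and the control YR612 was at the level of the *Yap* cKO retinas, so that the groups overlapped. It was tested under 2 kinds of alternative, and passed without the filter on low counts (log2 fold change -2.94, adjusted p = 1.28e-20) and without YR612 (-3.44, edgeR adjusted p = 0.00258), but not without YR711, YR713 or YR714 (adjusted p = 0.158, 0.291 and 0.0547). Without the filter 1865 of all 30129 genes passed, beside 247 of 16575 with it. *Col28a1* held 1 to 5 counts and *Col6a5* 0 to 4 counts per retina, and neither passed when tested without the filter on low counts (adjusted p = 0.512 and 0.982). *Col10a1*, the type X gene of hypertrophic cartilage, held 6 to 11 counts per retina.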
